A study of Mus musculus with 6 samples.

Results

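The genes described here are 9 members of the JAK-STAT signaling pathway in mouse splenic monocytes, namely the transcription factors Stat2, Stat3, Stat4, Stat5a, Stat5b and Stat6 and the kinases Jak1, Jak2 and Tyk2. They were chosen by name from the 46072 gene identifiers of the deposited table, and each stood on a single identifier. The remaining members of both families were not analysed here. Messenger RNA was sequenced from monocytes isolated by bead-based negative selection from the spleens of female C57BL/6 mice, 8 to 10 weeks old. The 3 Con libraries came from mice gavaged with water. The 3 Van libraries came from mice gavaged with vancomycin, an oral antibiotic known to act mainly on Gram-positive bacteria. The study reported that this treatment lowered the share of Bacteroidota in the gut flora, as measured in feces. Vancomycin was given as 1 mg in each of 2 gavages per day (2 mg per day) for 6 days, and all mice then rested without antibiotic. The labels and methods give this rest as 6 to 8 days, and the account of the sequencing names 8. The comparison asks whether this change of the gut flora left a mark on the transcripts of the signaling machinery in resting monocytes. Protein and phosphorylation, the step at which the pathway is switched on, were not measured in these data.

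Cytokines and interferons bind paired receptors that carry JAK kinases on their inner side. The kinases phosphorylate the receptor and then STAT proteins, which pair, enter the nucleus and bind DNA. Each receptor uses its own set of kinases and STATs: type I interferon works through Jak1 and Tyk2 and a complex of Stat2 with Irf9, gp130 cytokines work mainly through Stat3, interleukin-4 works through Stat6, and GM-CSF works through Jak2 and the Stat5 pair. In monocytes these routes carry signals for antiviral defense, for growth and survival and for the choice between inflammatory and repair programs.

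The libraries held between 43383919 and 61834407 estimated counts. Of the monocyte markers, 9 of 9 were tested and 2 fell in Van, the chemokine receptor Ccr2 (log2 fold change -0.83, adjusted p = 0.0283) and the Fc receptor Fcgr1 (-0.32, adjusted p = 0.0328). The summed level of the monocyte markers was 11482 to 11989 FPKM (fragments scaled to transcript length and library size) in Con and 10291 to 11784 FPKM in Van, most of it from Lyz2 (log2 fold change -0.10). DESeq2 also called Itgam (-0.21). Ly6c2 (-0.34), Cx3cr1 (-0.17), Plac8 (-0.08), Csf1r (0.08) and Nr4a1 (0.11) did not pass in either tool. Of the monocyte markers, 7 had log2 fold changes below 0 and 2 above. Of the erythroid markers, 3 of the 5 tested rose in Van, Alas2 (2.08, adjusted p = 0.0170), Hbb-bt (1.95, adjusted p = 0.0223) and Hba-a1 (1.76, adjusted p = 0.0403). DESeq2 called all 5, and all 5 log2 fold changes were above 0. The summed level of the erythroid list was 44.8 to 90.9 FPKM in Con against 153 to 344 in Van. Of the dendritic cell markers, 1 of 6 tested fell, Clec9a (-1.12, adjusted p = 0.0131), and DESeq2 called 3, Clec9a, Xcr1 (-0.85) and Siglech (-0.88), all lower. Their summed level was 14.3 to 15.3 FPKM in Con and 13.7 to 14.1 in Van, most of it from Flt3, which had a log2 fold change of 0.25. Here and below, adjusted p-values are those of the quasi-likelihood test in edgeR, adjusted by Benjamini-Hochberg over all genes tested, unless another tool is named. Over all genes tested, edgeR called 1.08% higher and 0.917% lower in Van, and DESeq2 called 7.36%. The part of other cells in the results below was not tested. In such bulk libraries, fewer cells of a type and less RNA per cell cannot be told apart.

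Transcripts of all 9 genes were measured in every library, and none of them passed edgeR's test between Van and Con. Stat2 had the lowest Van level relative to Con, at 0.827 times, and Stat6 had the highest, at 1.12 times. The remaining genes lay between these values, so that differences within the machinery itself were small. edgeR's quasi-likelihood test called 0 of the 9 members at an adjusted p of at most 0.05, where 2.00% of the 16138 genes tested were called. At an unadjusted p below 0.05 the same test gave 3 members, Stat2, Stat6 and Jak2, where the share over all genes was 16.5%. DESeq2's Wald test, the one named in the study's methods, called 2 members at an adjusted p of at most 0.05, Stat2 and Stat6. It called 7.36% of 13063 genes. DESeq2 gave an unadjusted p below 0.05 for 3 members, where the share over all genes was 11.5%. limma on quantile-normalized log2(FPKM + 1) values called 0 members, where it called 0.0992% of genes, and gave an unadjusted p below 0.05 for 4 members, where the share over all genes was 12.4%. The 3 Van values lay apart from the 3 Con values for 4 of the 9 members, 1 higher and 3 lower, where this held for 22.5% of genes tested (11.5% higher and 11.0% lower). The median log2 fold change (Van minus Con) of the 9 members was 0.02, and that of all genes tested was -0.0014.

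**Figure D1:**
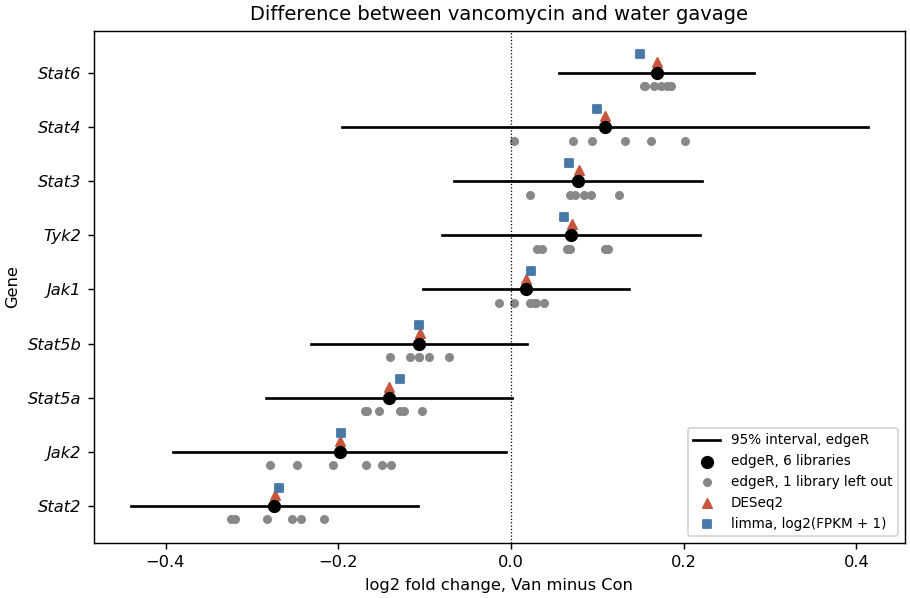
Log2 fold change of each of the 9 genes, Van minus Con, with its 95% interval from edgeR's quasi-likelihood fit over 3 Con and 3 Van libraries. Points left of 0 are lower in Van and points right of 0 are higher, with Stat2 at the lowest value (-0.27) and Stat6 at the highest (0.17).

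Of the STATs, Stat2 is the partner of Irf9 in the complex that turns on interferon-stimulated genes. Its level was 175, 152 and 160 CPM (counts scaled to library size) in the Con libraries and 130, 128 and 143 CPM in the Van libraries. All Van values were below all Con values, and the gap between the groups, from 143 to 152 CPM, was smaller than the range within either group. The means were 162 ± 11.99 CPM in Con and 134 ± 8.08 CPM in Van (SD, n = 3 each), a log2 fold change of -0.27 (SE 0.07, 95% interval -0.44 to -0.11). The edgeR quasi-likelihood test gave an unadjusted p of 0.00492 and an adjusted p of 0.104, and DESeq2 gave an adjusted p of 0.0130. An exact two-sided permutation test of the CPM gave p = 0.10, the smallest that 3 against 3 libraries allow. Irf9, the DNA-binding partner of Stat2, had means of 123 ± 5.13 CPM (Con) and 128 ± 3.52 CPM (Van; SD, n = 3 each), a log2 fold change of 0.06 with an adjusted p of 0.669 from the edgeR quasi-likelihood test.

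**Figure D2:**
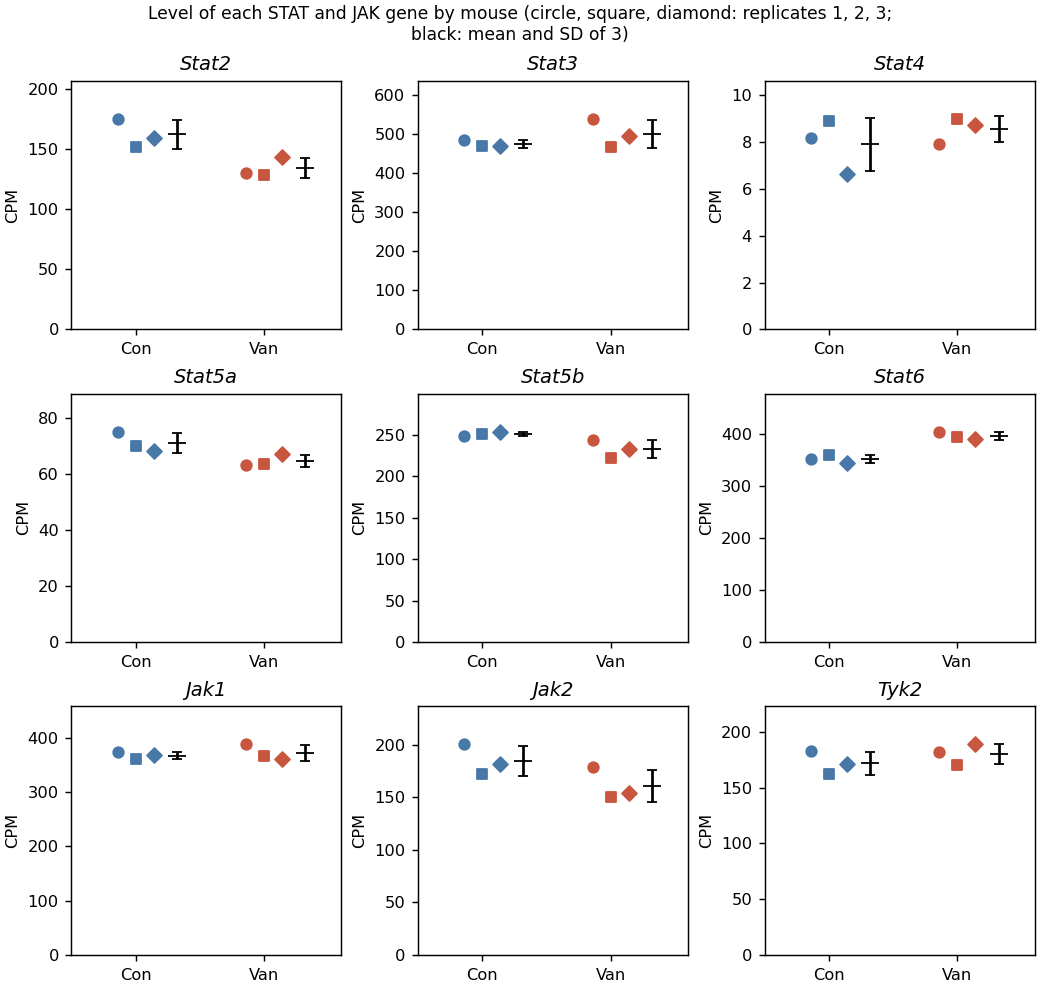
Level of each of the 9 genes in each library, in CPM, with the group mean and SD (n = 3 each). For Stat2, Stat5a and Stat5b the 3 Van points lie below the 3 Con points, for Stat6 they lie above them, and for the other 5 genes the groups overlap.

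Stat2 lies at chr10:128270559-128292849 on the plus strand of GRCm38 in the GENCODE M21 annotation. Its RefSeq promoter (250 bases before to 50 after the start, GRCm38.p6, chr10:128270248-128270547, plus strand) is shown because it holds the core of the element that the Stat2 and Irf9 complex is known to bind, here searched on both strands as TTTC, any 2 bases and TTTC. The capitals mark the match, which lies 222 to 213 bases before the start.
Stat2 promoter: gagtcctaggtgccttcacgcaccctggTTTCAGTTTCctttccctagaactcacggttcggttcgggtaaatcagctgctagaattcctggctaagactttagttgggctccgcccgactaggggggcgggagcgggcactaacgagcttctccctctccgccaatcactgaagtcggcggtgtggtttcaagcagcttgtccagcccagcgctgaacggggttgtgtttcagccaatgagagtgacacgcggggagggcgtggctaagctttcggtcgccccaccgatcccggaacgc
The same letters occurred in 1131 of 32851 RefSeq promoters of this length (3.44%), or, counted by gene, in at least 1 promoter of 3.99% of genes. Among the 9 genes they occurred in 2, Stat2 and, in 1 of its 2 promoters, Stat4. The palindrome that STAT pairs are known to bind, searched as TTC, any 3 bases and GAA, occurred in the promoters of 9.55% of genes and in 0 of the 9. A match is a description of letters in this window, and binding was not measured.

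Stat6 carries the interleukin-4 and interleukin-13 signal, which in macrophages is known for the repair type of activation. It was at 351, 360 and 344 CPM in Con and at 404, 393 and 389 CPM in Van. Every Van library was above every Con library, and both groups were tight around their means. These were 352 ± 7.96 CPM in Con and 395 ± 7.68 CPM in Van (SD, n = 3 each), a log2 fold change of 0.17 (SE 0.05, 95% interval 0.06 to 0.28). The edgeR quasi-likelihood test gave an unadjusted p of 0.00852 and an adjusted p of 0.136, and DESeq2 gave an adjusted p of 0.0272. Il4ra, the receptor chain through which both cytokines reach Stat6, had a log2 fold change of -0.05 with an adjusted p of 0.864 from the edgeR quasi-likelihood test. Stat6 lies at chr10:127642986-127660957 on the plus strand, 609601 bases from Stat2, and shares 40 exonic bases with Nab2.

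Stat5a and Stat5b are paralogs that transmit growth-factor signals such as that of GM-CSF. Stat5a was at 75.3, 70.2 and 68.5 CPM in Con and at 63.3, 63.7 and 67.2 CPM in Van. Every Van library was below every Con library, with a log2 fold change of -0.14 (SE 0.06), and the edgeR quasi-likelihood test gave an adjusted p of 0.309. Stat5b was at 248, 251 and 254 CPM in Con and at 244, 222 and 233 CPM in Van. Here too the groups did not overlap, with Van replicate 1 closest to Con, a log2 fold change of -0.11 (SE 0.05) and an adjusted p of 0.386 in the same test. The 95% intervals of the log2 fold change, from -0.28 to 0.00149 for Stat5a and from -0.23 to 0.02 for Stat5b, both reached 0.

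Within a library, Stat5b made up 70.3%, 72.1% and 72.7% of the summed FPKM of the pair in Con and 73.2%, 71.1% and 72.0% in Van. The groups overlapped, with means of 71.7% ± 1.261 in Con and 72.1% ± 1.07 in Van (SD, n = 3 each). The difference of 0.408 percentage points was below the spread within either group (exact two-sided permutation test, p = 0.7).

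Stat5b (chr11:100780731-100850724, minus strand) and Stat5a (chr11:100859351-100885169, plus strand) stand back to back, 8626 bases apart, and the end of Stat5a overlaps the end of Stat3 by 72 exonic bases on the opposite strand. The pair is close enough in sequence that some reads could come from either gene. Over 2291 aligned coding bases the identity was 90.8%, and the longest run without a difference was 324 bases, positions 571 to 894 of both coding sequences. The first 150 bases of that run are shown because a read from within it cannot by itself be assigned to one of the genes.
Stat5a and Stat5b, common coding run: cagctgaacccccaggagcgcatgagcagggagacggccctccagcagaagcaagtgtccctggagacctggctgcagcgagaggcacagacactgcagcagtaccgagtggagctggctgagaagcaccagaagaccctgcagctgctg
The transcripts of the pair had 387 stretches of 75 bases in common, 5.12% of those of Stat5a and 6.99% of those of Stat5b. At 100 bases, the read length in the sequencing protocol, the shares were 3.44% and 4.79%. The length of 75 bases is also given because the deposited counts multiplied by 75 were whole numbers within 0.05 for 52.3% to 55.0% of nonzero values per library, against 9.56% to 9.98% when multiplied by 74. How the deposited counts treated reads with several possible origins was not given in the sources used here, so the separate levels of the pair carry this limit.
RefSeq gives each gene of the pair 2 promoters (GRCm38.p6). A 16-base run without a difference, in capitals, was found in 1 promoter of each, shown in windows of 76 bases. For Stat5b this is the promoter of a start inside the gene and not the one that faces Stat5a. For Stat5a it is the downstream one of the 2, and its window also lies within the annotated gene.
Stat5a, chr11:100860422-100860497, plus strand: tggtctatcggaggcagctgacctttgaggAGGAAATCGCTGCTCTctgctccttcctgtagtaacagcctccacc
Stat5b, chr11:100822548-100822623, minus strand: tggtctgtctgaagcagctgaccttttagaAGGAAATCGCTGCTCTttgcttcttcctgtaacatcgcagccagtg

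Stat3, which serves interleukin-6, interleukin-10 and the gp130 cytokines, had the highest level of the 9 genes. It was at 485, 467 and 469 CPM in Con and at 538, 467 and 495 CPM in Van, so that the groups overlapped and Van replicate 1 was the highest library. The log2 fold change was 0.08 (SE 0.06, 95% interval -0.07 to 0.22), and without Van replicate 1 it was 0.02. Stat4, best known for the interleukin-12 signal in T and NK cells, was the lowest of the 9. It was at 8.20, 8.89 and 6.66 CPM in Con and at 7.93, 9.001 and 8.72 CPM in Van, with overlapping groups and a log2 fold change of 0.11 (SE 0.13). Without Con replicate 3, the lowest library, that value was 0.0034. The summed level of the NK cell markers was 4.11 to 6.60 FPKM in Con and 3.48 to 4.86 FPKM in Van. That of the T cell markers was 12.3 to 16.2 FPKM in Con and 9.43 to 13.2 FPKM in Van, and the part of these cells in the Stat4 level was not tested. A further gene, Gm28177, overlaps 26.7% of the exonic bases of Stat4 on the same strand, so that reads from this stretch could be counted for either.

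Of the kinases, Jak2 transmits the signals of GM-CSF, interferon gamma and the erythropoietin receptor. It was at 200.5, 172 and 182 CPM in Con and at 179, 150.3 and 154 CPM in Van. Van replicate 1 lay within the Con range and the other Van libraries lay below it. The log2 fold change was -0.20 (SE 0.08, 95% interval -0.39 to -0.01), with an unadjusted p of 0.0452 and an adjusted p of 0.291 from the edgeR quasi-likelihood test, and an adjusted p of 0.208 from DESeq2. Leaving out Con replicate 1, the highest library, gave -0.14, and leaving out Van replicate 1 gave -0.28. Jak1, the kinase that most class II and gp130 receptors need, was at 374, 360 and 368 CPM in Con and at 388, 366 and 361 CPM in Van. The log2 fold change of Jak1 was 0.02 (SE 0.05, 95% interval -0.10 to 0.14), the smallest difference of the 9 genes, and without Van replicate 1 its sign turned (-0.01). Tyk2, the partner of Jak1 at the type I interferon receptor, was at 182, 162 and 171 CPM in Con and at 182, 171 and 189 CPM in Van. The Tyk2 groups overlapped, with a log2 fold change of 0.07 (SE 0.07, 95% interval -0.08 to 0.22). A gene on the opposite strand, 1700084C06Rik, covers 8.07% of the exonic bases of Tyk2, and whether counting used the strand was not given in the sources used here.

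On the length-scaled level, which allows genes to be set side by side, the order from high to low was Stat3, Stat6, Jak1, Stat5b, Tyk2, Jak2, Stat2, Stat5a and Stat4. Stat3 was at 107 ± 5.44 FPKM, Stat6 at 88.1 ± 5.92 FPKM and Jak1 at 64.9 ± 1.99 FPKM (mean ± SD over 6 libraries). Stat5b followed at 39.9 ± 1.74 FPKM, above a group of 3 genes at similar levels, Tyk2 (32.0 ± 1.69), Jak2 (28.9 ± 2.94) and Stat2 (28.3 ± 3.26 FPKM). Stat5a was at 15.6 ± 0.853 FPKM and Stat4 at 2.45 ± 0.210 FPKM. Within single libraries this order was the same in 6 of 6 for each pair of neighbours except 2. Tyk2 exceeded Jak2 in 5 of 6 libraries, and Jak2 exceeded Stat2 in 3 of 6, in 1 Con and 2 Van libraries, so that neither pair differed beyond its spread. Stat3 had a higher mean FPKM than 96.4% of genes tested, Stat5a than 75% and Stat4 than 40.3%.

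**Figure D3:**
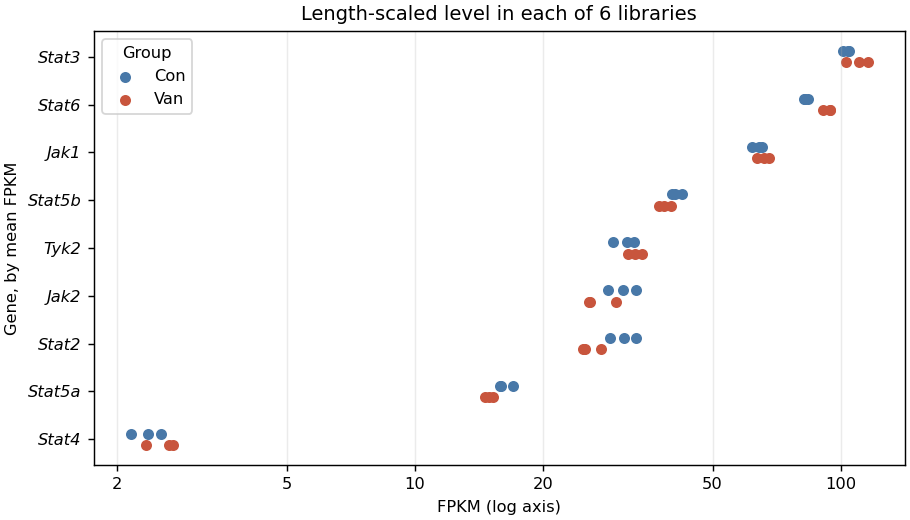
Length-scaled level of the 9 genes in each of the 6 libraries, in FPKM on a log axis, ordered by mean. Stat3, Stat6 and Jak1 head the order, Tyk2, Jak2 and Stat2 overlap near 30 FPKM, and Stat4 stands apart at 2.45 FPKM.

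Around these 9 genes, 123 further genes of the pathway were listed as ligands, receptors, inhibitors, cofactors and targets, of which 103 passed the filter on low counts. In Van, 9 of the 103 changed by edgeR's quasi-likelihood test (adjusted p at most 0.05), 2 rising and 7 falling, where 1.08% of all genes tested rose and 0.917% fell. DESeq2 called 15, where it called 7.36% of all genes, and limma called 0. The count of 9 depended on single libraries: it was 6, 2 and 1 without Con replicates 1, 2 and 3, and 5, 1 and 2 without Van replicates 1, 2 and 3. The median log2 fold change of the 103 was -0.03.

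Of 34 receptor genes, 31 were tested and 1 changed in edgeR's test, and DESeq2 called 3. Lifr, the receptor chain for leukemia inhibitory factor that signals to Stat3 through gp130, was at 36.7, 37.2 and 42.0 CPM in Con and at 101.7, 84.6 and 73.4 CPM in Van. The groups lay far apart, with a log2 fold change of 1.16 (SE 0.12, adjusted p = 0.00537 from the edgeR quasi-likelihood test), and Lifr remained called with each library left out in turn. The receptors with the highest FPKM did not pass. Ifngr1, which binds interferon gamma, had means of 757 ± 18.6 CPM (Con) and 808 ± 26.6 CPM (Van; SD, n = 3 each) and a log2 fold change of 0.09. Il10ra, which signals to Stat3, had a log2 fold change of -0.21 and Csf2ra, the GM-CSF receptor chain, one of 0.03.

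Of 24 ligand genes, 10 were tested and 2 changed, and 9 were at 0 in every library, among them Ifng, Il2, Il13 and Csf2. Clcf1, a gp130 cytokine, rose from 16.8 ± 0.941 to 26.9 ± 2.31 CPM (SD, n = 3 each), by 0.68 on the log2 scale (edgeR quasi-likelihood test, adjusted p = 0.0131). It passed in 3 of the 6 fits with a library left out, and 8.17% of its exonic bases overlap another gene on the same strand. The symbol stands on 2 identifiers with identical counts, of which 1 was used here, so the level cannot be assigned to either. Lif, the ligand of Lifr, was at 10.3 ± 1.06 CPM in Con and fell to 6.43 ± 0.730 in Van (-0.68 on the log2 scale, adjusted p = 0.0411 in edgeR), and no longer passed with any 1 library left out. The ligands with the highest FPKM had log2 fold changes of -0.03 (Osm, a gp130 cytokine), -0.04 (Ebi3) and -0.15 (Il27, which pairs with Ebi3).

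**Figure D4:**
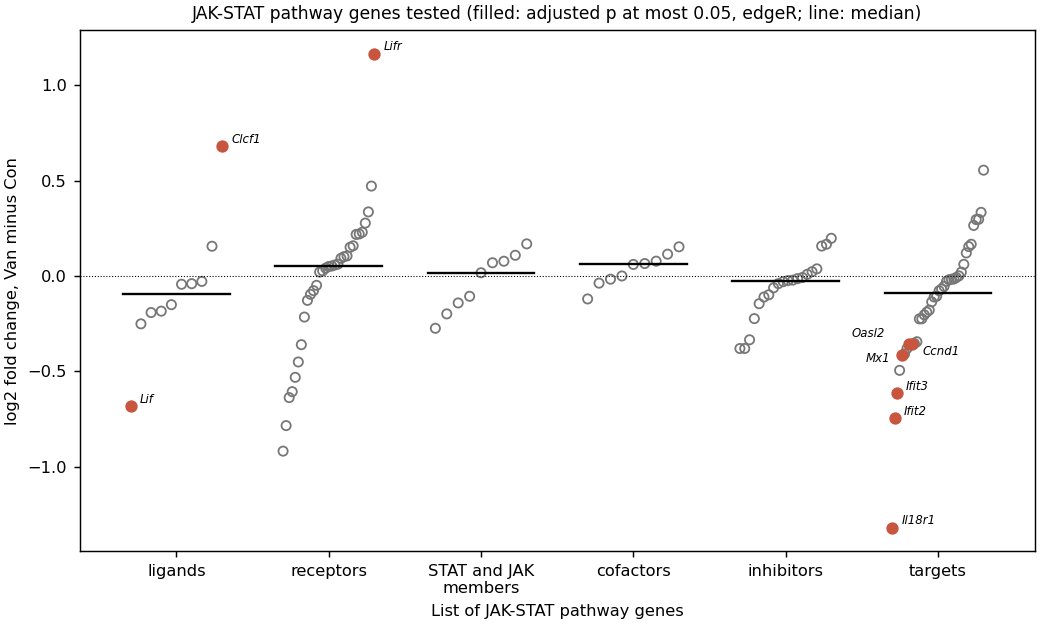
Log2 fold change, Van minus Con, of the tested genes of each pathway list and of the 9 STAT and JAK genes. Filled points passed edgeR's quasi-likelihood test at an adjusted p of at most 0.05 and horizontal lines are medians, and the 9 filled points comprise 2 ligands, 1 receptor and 6 targets.

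DESeq2 called 9 of the 41 target genes. In edgeR's test, 38 were tested and 6 changed, all of these 6 lower in Van. Of these, Ifit2, Ifit3, Mx1 and Oasl2 are known as interferon-induced. Ifit2 fell from 58.4 ± 5.61 to 34.8 ± 4.601 CPM (-0.75 on the log2 scale, adjusted p = 0.0200), Ifit3 from 58.3 ± 5.03 to 38.1 ± 3.61 (-0.62, adjusted p = 0.0223), Mx1 from 94.7 ± 5.37 to 71.2 ± 2.91 (-0.41, adjusted p = 0.0259) and Oasl2 from 184 ± 11.3 to 144 ± 8.94 (-0.36, adjusted p = 0.0416), each with n = 3 per group and the edgeR quasi-likelihood test. Other targets known as interferon-induced did not pass, with log2 fold changes of -0.49 (Rsad2), -0.22 (Isg15), -0.20 (Ifit1), -0.19 (Irf7) and -0.14 (Oas1a), and these genes were put together after their values were seen. The transcripts of Ifit3 share 41.1% of their 75-base and 31.7% of their 100-base stretches with those of Ifit3b, so its level is uncertain. Il18r1, a receptor chain for interleukin-18, fell from 4.64 ± 0.915 to 1.86 ± 0.423 CPM (-1.32 on the log2 scale, adjusted p = 0.0336 in edgeR). Ccnd1, a cyclin of the G1 phase, fell from 42.1 ± 1.45 to 32.9 ± 0.968 CPM (-0.36, adjusted p = 0.0323 in edgeR), with 23.4% of its exonic bases under a gene on the opposite strand. Of the 6 fits that left out a library, Ifit2 and Ifit3 passed in 2, Mx1 and Il18r1 in 1, and Oasl2 and Ccnd1 in 0. The targets with the highest FPKM, Junb (-0.08), Pim1 (-0.07) and Chil3 (0.56, adjusted p = 0.496), did not pass. The median log2 fold change of the targets tested was -0.09.

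The letters of the interferon element were found in the promoters of 6 of the 33 targets with a RefSeq promoter (3.99% of all genes) and, of the 4 called targets with one, in Ifit3, where they occur at 2 places. The STAT palindrome was found in 7 of the 33 (9.55% of all genes) and in 2 of the 4, Ifit2 and Il18r1. The interferon element matches of Ifit3 are set beside those of Stat2 and Stat4 to show the common core, in capitals, with 10 bases on each side.
Stat2, chr10:128270266-128270295, plus strand: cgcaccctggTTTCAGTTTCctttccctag
Stat4, chr1:52008133-52008162, plus strand: aatgtcttcaGAAAGTGAAAtttagaacgg
Ifit3, chr19:34583363-34583392, plus strand: cagtggtaagTTTCACTTTCctcttctggt
Ifit3, chr19:34583397-34583426, plus strand: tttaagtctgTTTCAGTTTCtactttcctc
The first of the Ifit3 matches lies 156 to 147 bases and the second 122 to 113 bases before the start.

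Of the 20 inhibitors, all tested, 0 passed edgeR's quasi-likelihood test, 6 had an unadjusted p below 0.05, 1 higher and 5 lower (16.5% of all genes tested), and the median was -0.03 on the log2 scale. DESeq2 called 1 of them, Socs6, a suppressor of cytokine signaling (-0.38, DESeq2 adjusted p = 0.00486). Of those with the highest FPKM, Ptpn6, a phosphatase that acts on JAKs, had means of 619 ± 22.1 CPM (Con) and 559.6 ± 2.05 CPM (Van). Ptpn1, which acts on Jak2 and Tyk2, had means of 525 ± 18.8 and 586 ± 13.6 CPM (SD, n = 3 each). The log2 fold changes were -0.14 (adjusted p = 0.204) for Ptpn6 and 0.16 (adjusted p = 0.183) for Ptpn1 in the edgeR quasi-likelihood test. Ptprc, the leukocyte phosphatase CD45, had a log2 fold change of 0.04. Of the 9 cofactors, edgeR, DESeq2 and limma each called 0, with an unadjusted p below 0.05 for 0 in edgeR and a median of 0.06. The acetyltransferase Ep300 had a log2 fold change of 0.11 (adjusted p = 0.316) and the adaptor Grb2 one of 0.08.

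The genes whose pattern over the 6 libraries was most like that of a member were sought for the 3 members with the widest range of log2 CPM, Stat2, Jak2 and Stat4, among 9910 genes with a mean of at least 5 CPM. The measure was the root mean square difference of centred log2 CPM. For Stat2 the closest were I830077J02Rik (0.0356), Hk2 (0.0357) and Ocrl (0.0396). For Jak2 they were Zfyve9 (0.0195), Tmem8 (0.0250) and Rapgef1 (0.0303), and for Stat4 they were Polr2h (0.0256), F8a (0.0374) and Tnfsfm13 (0.0421).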

How the data were processed

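Estimated counts and FPKM of splenic monocyte RNA were deposited for 3 Con and 3 Van libraries, named as replicates in the labels. The data statement of the study points to another deposit, and these libraries were tied to its groups by treatment label, so the details of mice, cell isolation and processing taken from it assume the same experiment. The study took 3 mice per group, and p-values measure the spread between these libraries. The estimated counts were made by the authors with HISAT2 2.2.1, StringTie 2.1.3 and tximport on GRCm38, with no library scaling. The FPKM values were made by the authors with StringTie and are scaled to library size and transcript length. The library kit was stranded, and the annotation release and the strand setting of the counting are not given in the sources used here.

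After rounding, the counts were fitted with edgeR 4.0.16 under R 4.3.3 (TMM, filterByExpr at a minimum count of 10, quasi-likelihood test, no covariate besides group). P-values were Benjamini-Hochberg adjusted over 16138 genes, and calls were made at 0.05. CPM used TMM library sizes. The share of Stat5b used an exact permutation test. Depth was 43383919 to 61834407 estimated counts, and each member had at least 288 counts per library.

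The members and lists were chosen with earlier results of these data known. Named genes were all members, called genes of the pathway and marker lists, the 3 genes of highest mean FPKM in each pathway list and the 3 genes most like each of the 3 most variable members. Irf9 belongs to these. Il4ra, Socs6, Rsad2, Isg15, Ifit1, Irf7 and Oas1a were named after their values were seen. So were the markers Vcam1, Sdc1, Igha, Jchain, Mzb1, Lyz2, Itgam, Cx3cr1, Xcr1, Siglech, Flt3, Ly6c2, Plac8, Csf1r and Nr4a1. Of the marker lists not described in the report, DESeq2 called Vcam1 of the red pulp macrophage list (0.46, adjusted p = 0.000429; edgeR adjusted p = 0.0621) and Sdc1 of the plasma cell list (-0.71, adjusted p = 0.0321; edgeR adjusted p = 0.131), and edgeR called no gene. On the plasma cell list, Igha had a log2 fold change of 0.84 (edgeR adjusted p = 0.108), Jchain one of -0.38 and Mzb1 one of -0.04. All 5 red pulp macrophage markers had log2 fold changes above 0. The summed FPKM of these lists in Con and in Van was 9.89 to 12.1 and 8.35 to 10.3 for B cells, 4.49 to 12.2 and 1.94 to 10.7 for neutrophils (Ly6g at 0), 0.986 to 2.22 and 1.00 to 1.38 for eosinophils and basophils, 839 to 991 and 959 to 1288 for red pulp macrophages, 10.5 to 21.7 and 9.51 to 12.5 for platelets and 66.7 to 95.0 and 73.8 to 119 for plasma cells.

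Alternatives were DESeq2 1.42.0, limma 3.58.1 on log2 FPKM after quantile normalization (pseudocount 1 or 0.1) or at a mean of at least 1 FPKM, RLE factors, library size alone, other count filters, the fragment scale, 1 identifier per symbol, a replicate block and each library left out. DESeq2 with its filter set for 0.05 was added after seeing the data. Promoters are from RefSeq and coordinates from GENCODE M21.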

Additional observations from a re-analysis of the deposited data

How the results depend on the processing

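Over 18 alternatives for each of 9 genes, 161 of 162 log2 fold changes kept the direction reported, and 4 were called. These were Stat2 (-0.27, adjusted p = 0.0130) and Stat6 (0.17, adjusted p = 0.0272) in DESeq2, so that 2 members were called, and the same genes with its filter set for 0.05 (-0.27, adjusted p = 0.0118, and 0.17, adjusted p = 0.0248), again 2. The exception was Jak1 without Van replicate 1 (-0.0137). Over all alternatives the adjusted p ranged from 0.0118 to 0.394 for Stat2 and from 0.0248 to 0.537 for Stat6.

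With each library left out in turn, the log2 fold change was -0.32 to -0.22 for Stat2, 0.02 to 0.13 for Stat3, 0.0034 to 0.20 for Stat4, -0.17 to -0.10 for Stat5a, -0.14 to -0.07 for Stat5b, 0.15 to 0.19 for Stat6, -0.0137 to 0.0379 for Jak1, -0.28 to -0.14 for Jak2 and 0.03 to 0.11 for Tyk2. The Stat5b share differed by -0.298 to 0.924 percentage points, reversed without Con replicate 1 (-0.298) and without Van replicate 1 (-0.148).

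The number of all genes called, 322 in the edgeR test, was 962 in DESeq2, 983 with its filter set for 0.05, 24 in limma at log2(FPKM + 1), 0 at log2(FPKM + 0.1), 46 at a mean of at least 1 FPKM, and 21 to 136 with a library left out. The number of pathway genes called, 9 in the edgeR test, was 15 in both DESeq2 fits, 0 in limma at either pseudocount, 1 at a mean of at least 1 FPKM, and 1 to 6 with a library left out.

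Deviations of same-numbered Con and Van libraries had correlations of 0.0654, -0.0281 and -0.15. With 3 libraries per group, these values cannot show whether the numbers pair the samples. With the number as a replicate block, 110 genes, 3 pathway genes and 0 members were called, with Stat2 at -0.27 (adjusted p = 0.152) and Stat6 at 0.17 (adjusted p = 0.237). Stat4, with 288 to 533 counts per library, had the widest standard error of the 9 genes. Counting of reads common to Stat5a and Stat5b, or to Stat4 and Gm28177, could not be resolved from these values.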
